A study of Homo sapiens with 24 samples.

Results

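The 33 genes described here encode the folding machinery of the endoplasmic reticulum (ER) and the parts of the unfolded protein response. They were chosen by name and not by their measured values, and comprised 9 chaperones and cochaperones, 2 lectin chaperones, 6 disulfide enzymes, 8 components of ER-associated degradation, 5 sensors and transcription factors, and 3 genes of translocation and vesicle transport. All 33 were found by Ensembl identifier among the 60675 genes of the count table, of which 19586 were protein-coding, and all 33 passed the filter on low counts in every comparison.

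The ER folds and glycosylates proteins that enter the secretory pathway. When unfolded proteins accumulate there, 3 membrane proteins respond: IRE1α (gene ERN1) splices the mRNA of the transcription factor XBP1, PERK (EIF2AK3) phosphorylates the initiation factor eIF2α and thereby favours translation of ATF4, and ATF6 is cut to release a transcription factor. The transcription factors raise genes for chaperones, for oxidative folding, for the degradation of misfolded proteins and for vesicle export. Astrocytes secrete many proteins and depend on this pathway to fold them. Gene-level counts show neither the splicing of XBP1 nor the cleavage of ATF6.

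The measurements were RNA-seq libraries of SW1783, a human astrocytoma cell line, after 24 h with an extract of Schisandrae Fructus, the fruit of Schisandra chinensis. The study compared a hot-water extract (WESF) with a 70% ethanol extract (EESF). WESF was given at 500 (high), 100 (medium) and 20 µg/mL (low) in batch A, and EESF at 310 (high), 62 (medium) and 12.4 µg/mL (low) in batch B, each beside its own vehicle of 0.1% DMSO (vehicle A and vehicle B). Each of the 8 groups had 3 libraries, and all cells were unmodified. The labels name the batches without saying what differed between them, so extract and batch cannot be told apart. The doses also differ between the extracts. The high doses were also unequal in toxicity by the methods. That of EESF lay at its IC20, the dose of 20% inhibition in an earlier toxicity test, where none was seen for WESF. Nothing states that the 3 libraries of a group came from separate cultures, so p-values measure the spread between these libraries, which may be technical.

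Total expected counts per library ran from 18727797 (vehicle B replicate 3) to 32567395 (EESF high replicate 2). Vehicle A had 26447834 to 28461841 and WESF high 20731749 to 24692309, while vehicle B had 18727797 to 20465712 and EESF high 29659110 to 32567395. The high-dose libraries were thus shallower than their vehicle in batch A and deeper in batch B. Levels are given as CPM, each count as a share of its library scaled with TMM factors. Levels of different genes are set side by side only after division by transcript length, scaled to the same sum in every library (TPM-like values). A gene is called higher or lower where the adjusted p of edgeR's quasi-likelihood test was under 0.05 over all genes tested, and called a DEG where its fold change was also beyond 1.5.

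The vehicle libraries of the batches were not independent of each other. Deviations from the group mean over 6024 genes correlated at 0.828, 0.522 and 0.774 between vehicle A and vehicle B libraries of the same number, and at -0.722 to 0.0496 between those of different numbers. Same-numbered vehicle libraries differed by a chi-square of 3.27 to 3.55 per degree of freedom, above the 1 of sampling noise, against 4.21 to 10.9 for different numbers. In the library names they differ only by the letter of the batch. Whether they share cultures or RNA is not given in the sources used here. The extract comparisons therefore rest on vehicles that vary together, and the values of both extracts are set side by side without a test of their overlap. Same-numbered WESF medium and EESF medium libraries correlated more weakly, at 0.19, 0.135 and 0.262, against -0.229 to 0.0432 for different numbers. Those of the high and low doses did so at -0.169 to 0.107, and differently numbered pairs there at -0.183 to 0.193. The medium-dose pairs differed by a chi-square of 11.8 to 32.9 for the same number and 14.4 to 35.9 for different numbers. Pairing by number is thus less clear at the medium dose than in the vehicles. Same-numbered treated and vehicle libraries of a batch correlated at -0.0986 to 0.0993. These values were taken over all genes that passed the filter, with low counts included, and not over the 6024 genes of higher level. They are therefore not directly comparable with the values above.

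Markers of the labelled cell type were partly absent. GFAP, the intermediate filament of astrocytes, had at most 10 counts in any library, S100B 4, AQP4 1, ALDH1L1 4 and SLC1A2 14. Other glial genes were present: VIM averaged 4821 CPM in vehicle A, CD44 2836 and SOX9 81.7. Of the 10 glial markers, VIM was the most abundant, and the summed level of all 10 was 6177 to 6419 TPM-like units in vehicle A, 5904 to 6050 in WESF high, 6116 to 6383 in vehicle B and 5858 to 6115 in EESF high.

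Markers of other cell types were low but moved with the high doses. The 4 neuronal markers summed to 41.4 to 45.3 TPM-like units in vehicle A and 16.6 to 18.7 in WESF high, and to 42.9 to 44.2 in vehicle B and 17.9 to 22.0 in EESF high. The 4 epithelial markers summed to 210.5 to 229 in vehicle A and 93.2 to 107 in WESF high, and to 194 to 203 in vehicle B and 115 to 144 in EESF high, with KRT18 at a mean of 124 CPM in vehicle A and 46.4 CPM in WESF high, while EPCAM and CDH1 had at most 5 and 3 counts. The 4 microglial markers summed to 3.94 to 4.54 in vehicle A and 0.884 to 1.04 in WESF high, and to 3.61 to 4.41 in vehicle B and 0.607 to 0.929 in EESF high, with AIF1 and P2RY12 at 1 count at most. The 4 oligodendrocyte markers summed to 5.43 to 6.29 in vehicle A and 9.70 to 11.6 in WESF high, and to 5.14 to 5.80 in vehicle B and 7.38 to 7.83 in EESF high, with MOG at 0 and MAG at 1 count at most. Their part in the results was not tested. The libraries are of a single cell line, so these sums do not count cells of other types. In bulk, fewer cells with such RNA and less of it per cell cannot be told apart.

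Promoter sequences are shown first, because the class of genes is known for shared elements. The ER stress response element (ERSE, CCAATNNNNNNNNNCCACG) and the shorter ERSE-II (ATTGGNCCACG) are known binding sites of NF-Y with ATF6 or XBP1. Both strands of the RefSeq promoter windows (GRCh38.p14, 250 bases before to 50 after the start) were searched. A window existed for 29 members, and not for DERL1, DERL3, PDIA3 and SEC24D. ERSE letters stood in 8 of the 29 (27.6%) and in 25 of 27305 genes with a window (0.0916%), and ERSE-II letters in 3 of 29 (10.3%) and in 19 genes (0.0696%). The matches below are shown 5′ to 3′ on the strand of the gene, with the element in capitals except for the 9 free bases of ERSE. The 1 free base of ERSE-II is in capitals too.
HSPA5, chr9:125241391-125241409, minus strand: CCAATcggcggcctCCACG
HSP90B1, chr12:103930216-103930234, plus strand: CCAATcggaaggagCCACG
XBP1, chr22:28800603-28800621, minus strand: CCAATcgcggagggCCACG
PDIA6, chr2:10812853-10812871, minus strand: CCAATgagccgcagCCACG
CANX, chr5:179698778-179698796, plus strand: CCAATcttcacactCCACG
HERPUD1 (ERSE-II), chr16:56932025-56932035, plus strand: ATTGGGCCACG
The first 3 belong to genes that rose with both extracts, and those of PDIA6 and CANX to genes that did not, as described below. HSP90B1 had a further match in the reverse orientation, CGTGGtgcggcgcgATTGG at chr12:103930321-103930339, and CALR, CRELD2 and ERO1B had reverse matches of ERSE. HYOU1 held ERSE-II in reverse at 2 places and SDF2L1 at 1. The spaced element of HSPA5 lies at the end of this stretch of the minus strand, chr9:125241391-125241509, which also holds another CCAAT box:
HSPA5: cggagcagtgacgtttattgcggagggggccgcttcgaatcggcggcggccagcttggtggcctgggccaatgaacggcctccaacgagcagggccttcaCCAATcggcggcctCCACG
The ERSE-II of HERPUD1 is shown in its context, chr16:56932005-56932055 on the plus strand:
HERPUD1: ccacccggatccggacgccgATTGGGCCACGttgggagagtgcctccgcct
CCAAT alone, in either orientation, stood in 26 of the 29 windows (89.7%) and in 10846 of the 27305 (39.7%), and the UPRE letters TGACGTGG in 1 of 29 (3.45%), HYOU1, where they overlap an ERSE-II, and in 253 genes (0.927%). A match of letters is a description and not a measured binding site.

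At the high dose of WESF, 28 of the 33 members were higher than in vehicle A, 3 were lower (DNAJB11, CANX and DERL2) and 2 were not called (DNAJC3 and CALR). Of the 13129 genes tested, 34.3% were called higher and 34.6% lower. The median log2 fold change of the members was 0.44, against 0.00 for all genes. Of the members, 14 were DEGs with a higher level and 0 with a lower level, where 11.1% and 13% of all genes were. In 26 members all 3 treated libraries lay above all 3 vehicle libraries, a pattern of 35.9% of all genes, and in 3 they lay below (35.6% of all genes).

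At the high dose of EESF, 20 members were higher than in vehicle B, 4 were lower (DNAJB11, DNAJC3, CANX and DERL2) and 9 were not called. Here 29.3% of the 13092 genes tested were called higher and 28.7% lower, and the median of the members was 0.19 against 0.01 for all genes. Of the members, 8 were DEGs with a higher level and 0 with a lower level, against 8.21% and 9.17% of all genes. All treated libraries lay above all vehicle libraries in 21 members and below in 5, against 31.6% and 31.2% of all genes. Taken as a share of all protein-coding transcripts by length, the members together held 1.14% to 1.17% in vehicle A and 1.64% to 1.79% in WESF high, and 1.10% to 1.12% in vehicle B and 1.36% to 1.41% in EESF high.

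**Figure D1:**
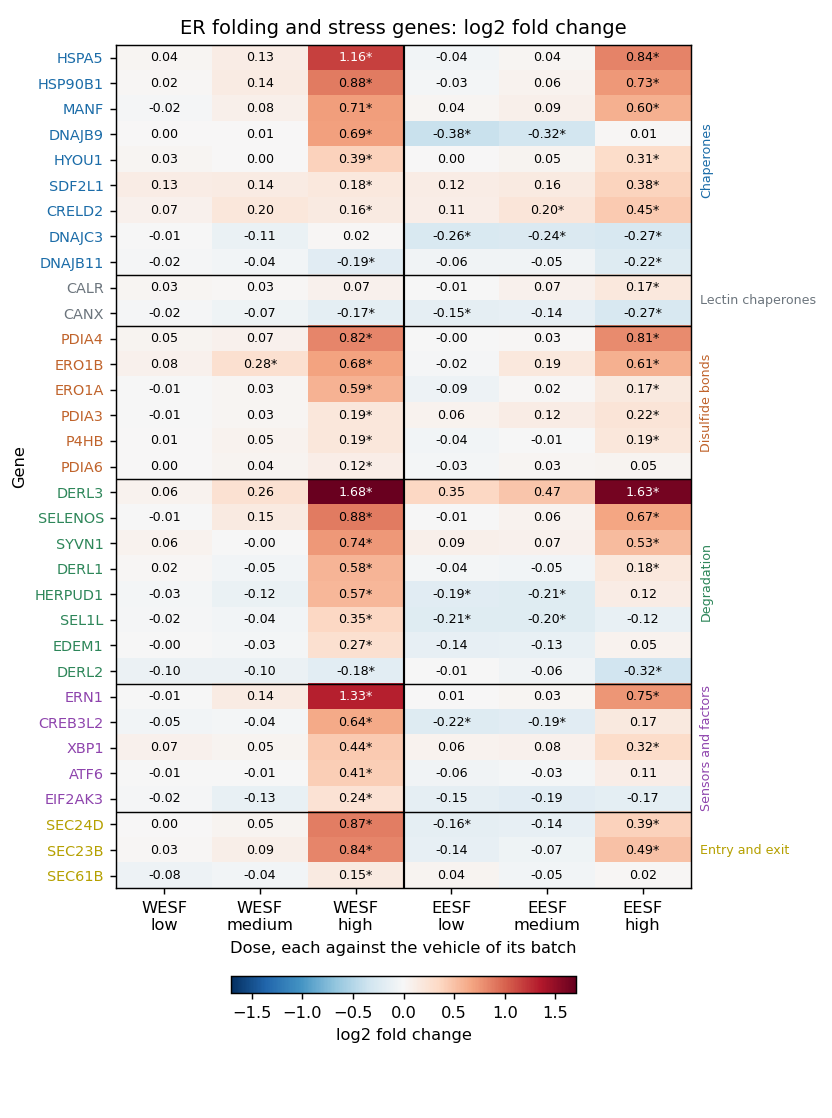
The 33 genes (rows, by role) in the 6 comparisons of an extract dose with the vehicle of its batch (columns), with the log2 fold change in colour and an asterisk where the adjusted p was under 0.05 (edgeR). The high-dose columns hold 31 and 24 asterisks, while those of the medium and low doses hold 1 and 0 for WESF and 6 and 7 for EESF.

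The chaperones of the ER lumen rose most clearly in HSPA5, also called BiP or GRP78, the Hsp70 protein that binds unfolded chains and holds the stress sensors inactive. HSPA5 (chr9:125234853-125241382, minus strand) measured 3222, 3378 and 3316 CPM in vehicle A and 7264, 7614 and 7229 CPM in WESF high. It measured 3121, 3252 and 3208 CPM in vehicle B and 5505, 5740.1 and 5925 CPM in EESF high. In both batches every treated library lay far above every vehicle library. The log2 fold change was 1.16 ± 0.05 (SE, edgeR adjusted p = 1.5e-12) with WESF and 0.84 ± 0.05 (adjusted p = 7.55e-08) with EESF, or 2.23-fold and 1.79-fold.

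HSP90B1, or GRP94, the Hsp90 protein of the ER, followed with smaller changes (chr12:103930107-103953931, plus strand). Its level was 1506, 1514 and 1464 CPM in vehicle A and 2669.5, 2841 and 2749 CPM in WESF high. In batch B it was 1476, 1493 and 1419 CPM in the vehicle and 2439.9, 2366 and 2483 CPM in EESF high. The groups did not overlap in either batch. The log2 fold changes were 0.88 ± 0.04 (edgeR adjusted p = 2.2e-11) and 0.73 ± 0.05 (adjusted p = 1.5e-07).

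The smaller chaperones and cochaperones differed among themselves. MANF, a secreted ER stress protein that binds HSPA5, rose by 0.71 (log2) with WESF and 0.60 with EESF, and HYOU1, a large Hsp70 relative that serves HSPA5 as an exchange factor, by 0.39 and 0.31. SDF2L1 and CRELD2, further ER stress proteins, had the reverse order, with 0.18 and 0.16 for WESF and 0.38 and 0.45 for EESF. Both WESF calls were lost in 3 of 6 fits that left out 1 library (edgeR adjusted p up to 0.0957 and 0.136). CRELD2 shares exonic sequence with ALG12 on the opposite strand, whose level was 54.7% of its own, so its counts are uncertain. DNAJB11, a J-protein cochaperone of HSPA5, fell by 0.19 with WESF and by 0.22 with EESF; TBCCD1 on the opposite strand had 10.4% of its level.

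DNAJB9, a J-protein that keeps IRE1α inactive together with HSPA5, stood out between the extracts. It measured 25.1, 26.2 and 21.5 CPM in vehicle A and 37.9, 41.3 and 38.9 CPM in WESF high. With EESF it measured 25.3, 24.9 and 26.1 CPM in the vehicle and 27.2, 24.2 and 25.7 CPM at the high dose. The groups were apart in batch A and overlapped in batch B. The log2 fold change was 0.69 ± 0.07 with WESF (edgeR adjusted p = 9.73e-08) and 0.01 ± 0.07 with EESF (adjusted p = 0.858).

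DNAJC3, a cochaperone that also inhibits PERK, had 163, 169 and 184 CPM in vehicle A and 174, 185 and 165 CPM in WESF high, which overlapped. In vehicle B it had 165, 164 and 184 CPM and in EESF high 153, 136 and 137 CPM, all below the vehicle. Its log2 fold change was 0.02 with WESF (edgeR adjusted p = 0.775) and -0.27 with EESF (adjusted p = 0.00346).

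The lectin chaperones, which hold glycoproteins during folding, changed little or fell, and neither was a DEG. CALR (calreticulin) measured 1662, 1647 and 1555 CPM in vehicle A and 1694, 1747 and 1662 CPM in WESF high, and 1666, 1615 and 1572 CPM in vehicle B and 1659, 1883 and 1928 CPM in EESF high. These groups overlapped in both batches, with log2 fold changes of 0.07 (edgeR adjusted p = 0.177) and 0.17 (adjusted p = 0.0269). The call of CALR with EESF was lost in 4 of 6 fits that left out 1 library (edgeR adjusted p up to 0.119). CANX (calnexin), its membrane-bound partner, measured 2319.6, 2512 and 2495 CPM in vehicle A and 2219, 2165 and 2126 CPM in WESF high. In vehicle B it had 2394, 2558 and 2535 CPM and in EESF high 2165, 1992 and 2033 CPM. CANX was lower in every treated library than in every vehicle library, and fell by 0.17 and by 0.27 on the log2 scale.

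**Figure D2:**
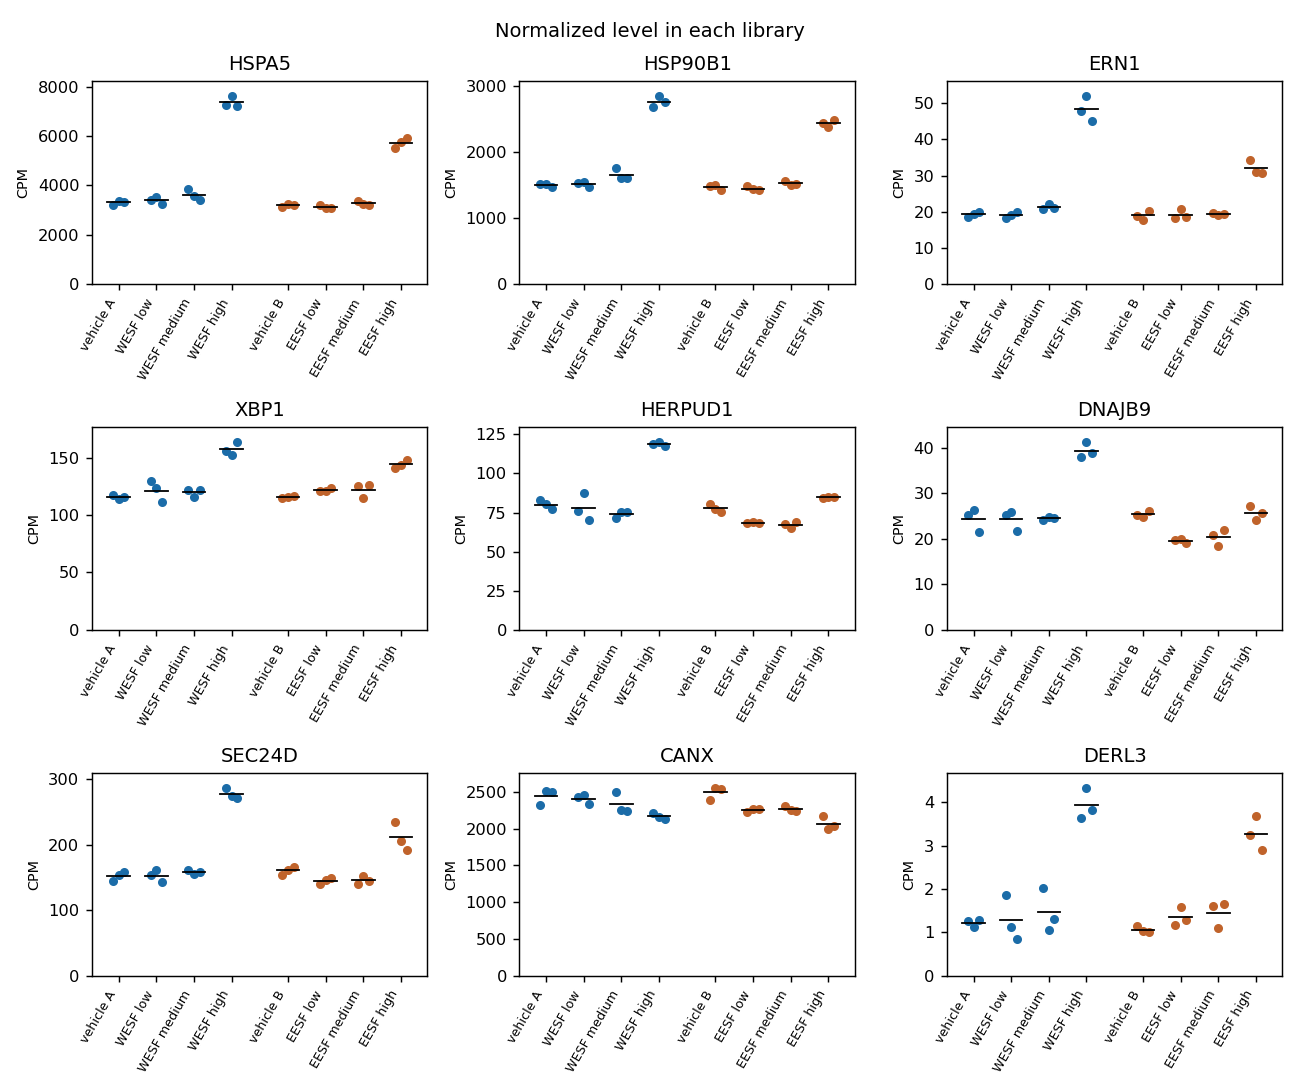
CPM of 9 of the genes (panels) in each of the 3 libraries (points) of the 8 groups, with the group mean as a black bar. HSPA5, HSP90B1 and ERN1 stand high in both high-dose groups, HERPUD1 and DNAJB9 are highest in WESF high, and CANX is lower at both high doses.

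All 6 disulfide enzymes were higher with WESF high, and 5 with EESF high, where 34.3% and 29.3% of all genes were. PDIA4, a protein disulfide isomerase of the ER (chr7:149003062-149028662, minus strand), had nearly the same change with both extracts. It measured 713, 731 and 691 CPM in vehicle A and 1249, 1284 and 1248 CPM in WESF high, and 686, 704 and 671 CPM in vehicle B and 1133, 1259 and 1220.4 CPM in EESF high. The log2 fold changes were 0.82 ± 0.04 (edgeR adjusted p = 3.29e-11) and 0.81 ± 0.05 (adjusted p = 1.79e-07), without overlap of groups. The other isomerases changed little: PDIA3 by 0.19 and 0.22 and P4HB by 0.19 and 0.19 (log2, WESF and EESF), while PDIA6 rose by 0.12 with WESF and measured 0.05 with EESF (edgeR adjusted p = 0.36). The call of PDIA6 was lost without vehicle A replicate 3, WESF high replicate 1 or WESF high replicate 3 (edgeR adjusted p up to 0.081), and that of P4HB with EESF without vehicle B replicate 2 or EESF high replicate 2 (adjusted p up to 0.0599).

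The oxidases that recharge the isomerases parted. ERO1A (chr14:52639915-52695900, minus strand) measured 146, 143 and 147 CPM in vehicle A and 219.8, 214 and 222 CPM in WESF high. It measured 152, 147 and 154 CPM in vehicle B and 175, 161 and 174 CPM in EESF high, which is a smaller step, again without overlap. The log2 fold change was 0.59 ± 0.04 with WESF (edgeR adjusted p = 1.88e-09) and 0.17 ± 0.05 with EESF (adjusted p = 0.0137). The EESF call was lost without vehicle B replicate 2 (edgeR adjusted p = 0.0927) or EESF high replicate 3 (adjusted p = 0.054). ERO1B, its paralog, rose by 0.68 and by 0.61.

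ER-associated degradation, which carries misfolded proteins out of the ER to the proteasome, had 7 of 8 genes higher with WESF high and 4 of 8 with EESF high, and DERL2 lower with both, beside 34.3% of all genes higher and 34.6% lower with WESF high and 29.3% and 28.7% with EESF high. The class median was 0.58 with WESF and 0.15 with EESF. HERPUD1, a membrane protein that organises the ubiquitin ligase complex (chr16:56932142-56944864, plus strand), measured 82.8, 80.3 and 77.0 CPM in vehicle A and 119, 120.2 and 118 CPM in WESF high. In batch B it measured 80.8, 77.1 and 75.3 CPM in the vehicle and 84.1, 85.0 and 85.1 CPM at the high dose. All treated libraries were above the vehicle in both batches, by a wide gap in batch A and a narrow gap in batch B. The log2 fold changes were 0.57 ± 0.04 (edgeR adjusted p = 5.45e-09) and 0.12 ± 0.05 (adjusted p = 0.0513). HERPUD1 was called with EESF when EESF high replicate 1 was left out (edgeR adjusted p = 0.0465).

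SELENOS, a selenoprotein that links the Derlin channel proteins to the ATPase p97, rose with both extracts (chr15:101270817-101277500, minus strand). It measured 38.1, 36.1 and 32.6 CPM in vehicle A and 64.8, 69.0 and 63.5 CPM in WESF high, and 37.5, 34.5 and 32.9 CPM in vehicle B and 54.6, 53.3 and 59.4 CPM in EESF high. The log2 fold changes were 0.88 ± 0.06 (edgeR adjusted p = 6.08e-10) and 0.67 ± 0.07 (adjusted p = 3.98e-06), and no treated library overlapped its vehicle.

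The Derlins, channel proteins of retrotranslocation, moved in different ways. DERL3 (chr22:23834503-23839128, minus strand) had the largest log2 fold change of the 33 genes with both extracts but the lowest level. It measured 1.25, 1.12 and 1.29 CPM in vehicle A and 3.64, 4.34 and 3.81 CPM in WESF high, and 1.13, 1.02 and 1.00 CPM in vehicle B and 3.25, 3.67 and 2.89 CPM in EESF high. The log2 fold changes were 1.68 ± 0.17 (edgeR adjusted p = 1.3e-07) and 1.63 ± 0.18 (adjusted p = 1.2e-05), without overlap of groups. DERL3 shares exonic sequence with SMARCB1 on the opposite strand, which averaged 81.4 CPM over the libraries against 1.82 CPM, so its counts are uncertain. The log2 fold change of SMARCB1 was -0.35 with WESF and -0.04 with EESF.

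DERL1 measured 124, 122 and 129 CPM in vehicle A and 182, 195 and 186 CPM in WESF high, and 128, 129 and 133 CPM in vehicle B and 154, 144 and 142 CPM in EESF high. All treated libraries were above the vehicle, with log2 fold changes of 0.58 ± 0.04 (edgeR adjusted p = 5.02e-09) and 0.18 ± 0.05 (adjusted p = 0.0119). The EESF call of DERL1 was lost without vehicle B replicate 2 (edgeR adjusted p = 0.0656). Its neighbour on the opposite strand, TBC1D31, had 14.5% of its level and log2 fold changes of 0.64 and 0.60. DERL2 fell by 0.18 and by 0.32, but it overlaps MIS12 on the opposite strand, which had 61.9% of its level and rose by 0.32 with WESF, so its counts are uncertain too.

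Of the ubiquitin ligase complex that the Derlins serve, SYVN1 (HRD1, the ligase) rose by 0.74 and 0.53, and SEL1L, its adaptor, rose by 0.35 with WESF and measured -0.12 with EESF (edgeR adjusted p = 0.168). SYVN1 overlaps FAU on its own strand, at 112% of its level, and MRPL49 on the other, at 53.1%, so its counts are uncertain. The log2 fold changes with WESF and EESF were 0.01 and 0.23 for FAU and 0.28 and 0.30 for MRPL49. EDEM1, which marks glycoproteins for degradation, rose by 0.27 with WESF and measured 0.05 with EESF (edgeR adjusted p = 0.478).

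Of the 3 stress sensors, ERN1 changed most (chr17:64039080-64130819, minus strand). It measured 18.5, 19.3 and 19.9 CPM in vehicle A and 47.9, 52.0 and 45.0 CPM in WESF high, and 18.9, 17.8 and 20.3 CPM in vehicle B and 34.2, 31.1 and 30.7 CPM in EESF high. No treated library overlapped its vehicle. The log2 fold change was 1.33 ± 0.06 with WESF (edgeR adjusted p = 1.13e-11) and 0.75 ± 0.07 with EESF (adjusted p = 3.34e-06), or 2.51-fold and 1.68-fold.

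ATF6 (chr1:161766298-161977574, plus strand) measured 79.3, 83.6 and 81.9 CPM in vehicle A and 114, 108 and 104 CPM in WESF high. It measured 83.7, 86.9 and 85.2 CPM in vehicle B and 99.3, 88.7 and 88.6 CPM in EESF high. The treated libraries were above the vehicle in both batches, narrowly so in batch B. The log2 fold change was 0.41 ± 0.05 (edgeR adjusted p = 6.55e-07) with WESF and 0.11 ± 0.06 (adjusted p = 0.114) with EESF.

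EIF2AK3 (chr2:88556741-88691518, minus strand) measured 24.2, 27.1 and 25.7 CPM in vehicle A and 29.9, 30.0 and 31.0 CPM in WESF high, and 24.1, 26.4 and 24.9 CPM in vehicle B and 24.1, 21.5 and 21.4 CPM in EESF high. With WESF all treated libraries were above the vehicle, and with EESF none was. The log2 fold change was 0.24 ± 0.06 with WESF (edgeR adjusted p = 0.00171) and -0.17 ± 0.07 with EESF (adjusted p = 0.0519). EIF2AK3 was called lower with EESF when vehicle B replicate 1 (edgeR adjusted p = 0.0384) or EESF high replicate 1 (adjusted p = 0.00942) was left out.

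XBP1 (chr22:28794555-28800597, minus strand), the transcription factor whose mRNA IRE1α splices, measured 117, 114 and 116 CPM in vehicle A and 156, 152 and 164 CPM in WESF high. In batch B it measured 115, 116 and 117 CPM in the vehicle and 141, 144 and 148 CPM at the high dose. The groups were apart in both batches, with log2 fold changes of 0.44 ± 0.04 (edgeR adjusted p = 1.23e-07) and 0.32 ± 0.05 (adjusted p = 0.000138). CREB3L2, an ATF6 relative that is cut in the same way, rose by 0.64 with WESF and measured 0.17 with EESF (edgeR adjusted p = 0.0863).

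Both members of the COPII coat, which buds vesicles from the ER, rose. SEC24D (chr4:118722823-118838683, minus strand) measured 144, 154 and 158 CPM in vehicle A and 287, 275 and 271 CPM in WESF high, and 154, 162 and 166 CPM in vehicle B and 234, 206 and 192 CPM in EESF high. The groups were apart, with log2 fold changes of 0.87 and 0.39, and SEC23B rose by 0.84 and 0.49. SEC61B, a subunit of the translocation channel, rose by 0.15 with WESF and measured 0.02 with EESF (edgeR adjusted p = 0.808). Its WESF call was lost in 5 of 6 fits that left out 1 library (edgeR adjusted p up to 0.174).

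By role, the medians of the members' log2 fold changes with WESF and EESF were 0.39 and 0.38 for chaperones, -0.05 and -0.05 for lectin chaperones, 0.39 and 0.20 for disulfide enzymes, 0.58 and 0.15 for degradation, 0.44 and 0.17 for sensors and factors, and 0.84 and 0.39 for translocation and transport.

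Levels per transcript length spanned more than the changes did. In vehicle A the mean TPM-like level was 1920.1 for CALR, 1899 for HSPA5, 1362 for P4HB, 1209.8 for HSP90B1 and 1119.8 for CANX, and at the other end 12.7 for EIF2AK3, 5.50 for ERN1, 5.16 for ERO1B and 0.889 for DERL3. HSPA5 reached 4379.9 in WESF high and 3076 in EESF high, above CALR and CANX in both, and HSP90B1 reached 2307 and 1841. The 9 chaperones and cochaperones together summed to 4267 to 4456 in vehicle A and 7919 to 8773 in WESF high, and to 4062 to 4174 in vehicle B and 6162 to 6416 in EESF high. HSPA5 thus made up much of that class, while DERL3 and ERN1, with the largest folds of the 33 genes at WESF high, were among the lowest in level.

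**Figure D3:**
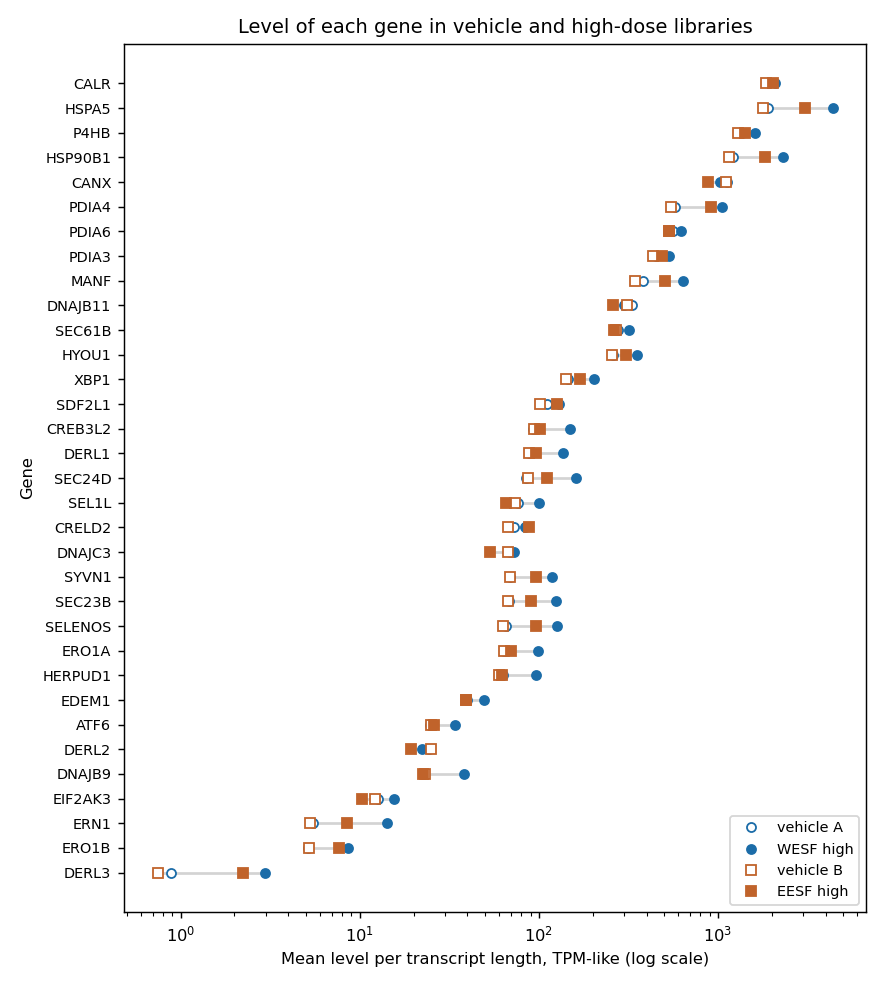
Mean TPM-like level of the 33 genes on a log axis in the vehicle and in the high-dose group of each batch. HSPA5, CALR, P4HB, HSP90B1 and CANX are the 5 highest in vehicle A, and DERL3 is the lowest at 0.889.

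At the lower doses the members gave few calls. WESF medium had 1 member called, ERO1B, at a log2 fold change of 0.28 ± 0.07 (edgeR adjusted p = 0.0384), where 1.89% of all genes were called higher. ERO1B was not called by DESeq2, and its edgeR call was lost when any library but vehicle A replicate 1 was left out. Without that library 5 members were called. The share of all genes called in that fit is not given here, and the 5 are not read as a result about the members. HSPA5 measured 3850.1, 3570.4 and 3413 CPM at WESF medium, each above the vehicle, and was not called. WESF low had 0 members called by edgeR and 0 by DESeq2, 0 at an unadjusted p under 0.05, and 0% of the 13131 genes were called, of which 470 had an unadjusted p under 0.05.

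With EESF most calls at the lower doses were of lower levels. At EESF medium, DNAJB9, DNAJC3, HERPUD1, SEL1L and CREB3L2 were lower than in vehicle B and CRELD2 was higher, against 8.48% of all genes called lower and 6.9% higher. At EESF low 7 members were lower and 0 higher: DNAJB9, DNAJC3, CANX, HERPUD1, SEL1L, CREB3L2 and SEC24D, against 6.24% and 3.11% of all genes. In each of these members all treated libraries were on the same side of all vehicle libraries. The share of all genes with that pattern is not given for these doses.

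The largest of these was DNAJB9. It measured 19.6, 20.0 and 19.1 CPM at EESF low and 20.8, 18.4 and 21.9 CPM at EESF medium, below the 24.9 to 26.1 CPM of vehicle B. The log2 fold change was -0.38 ± 0.06 at the low dose (edgeR adjusted p = 0.00265) and -0.32 ± 0.07 at the medium dose (adjusted p = 0.00759). HERPUD1 measured 68.6, 68.8 and 68.1 CPM at EESF low and 67.4, 65.3 and 68.8 CPM at EESF medium, again below its vehicle, with log2 fold changes of -0.19 and -0.21. DNAJC3 measured 140.1, 147 and 145 CPM at EESF low and 148, 145 and 141 CPM at EESF medium, against 164 to 184 CPM in vehicle B. The number of calls at these doses changed with the library left out. At EESF medium it was 11 with vehicle B replicate 1 left out, and 3 when the library dropped was EESF medium replicate 3 or either of the other vehicle B libraries. At EESF low it was 10 on leaving out vehicle B replicate 1. It was 3 on leaving out vehicle B replicate 3, 2 for vehicle B replicate 2, EESF low replicate 2 or EESF low replicate 3, and 1 for EESF low replicate 1. The number of all genes called moved in the same fits: from 1997 to 2838 at EESF medium without vehicle B replicate 1 and to between 791 and 1064 for the 3 libraries that left 3 members, and at EESF low from 1206 to 2679 without vehicle B replicate 1 and to between 213 and 514 for the 5 others.

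The same high-dose libraries were compared with the low dose of their own extract, which uses none of the vehicle libraries and was chosen after the values were seen. With WESF, 26 members were higher at the high than at the low dose and 2 were lower (DNAJB11 and CANX), against 34.1% and 34.1% of all genes. With EESF, 25 were higher and 3 lower (DNAJB11, CANX and DERL2), against 28.7% and 28.4%. Of the members not called against vehicle B, DNAJB9, HERPUD1, CREB3L2, EDEM1 and ATF6 were higher here, by 0.39, 0.31, 0.39, 0.19 and 0.17 on the log2 scale. DNAJB9, HERPUD1 and CREB3L2 had been called lower at EESF low than in vehicle B.

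Between the extracts, the quantity tested was the change with EESF high minus the change with WESF high, over 12 libraries. Of the 33 members, 15 were called with a signed log2 fold change lower with EESF and 0 with a higher one. Of all genes, 12.7% were called with a positive difference and 13.3% with a negative one. Called or not, 5 members had a difference above 0. The median difference of the members was -0.15, against 0.02 for all genes. By role, these 15 comprised 5 of 8 degradation genes, 4 of 5 sensors and factors, 3 of 9 chaperones, 2 of 3 transport genes, 1 of 6 disulfide enzymes and neither lectin. The calls of DNAJC3, SYVN1 and EDEM1 were each lost in at least 6 of 12 fits that left out 1 library, with edgeR adjusted p up to 0.0761, 0.0824 and 0.123.

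The 5 members with the smallest adjusted p were HERPUD1, at -0.44 ± 0.06 (log2, edgeR adjusted p = 0.000157), ERO1A at -0.42 ± 0.06 (adjusted p = 0.000248), DNAJB9 at -0.68 ± 0.10 (adjusted p = 0.000259), DERL1 at -0.41 ± 0.06 (adjusted p = 0.000473) and ERN1 at -0.57 ± 0.10 (adjusted p = 0.000786). DNAJB9 alone had a difference beyond 1.5-fold. HSPA5 differed by -0.31 ± 0.06 (edgeR adjusted p = 0.00173), ATF6 by -0.30 ± 0.07 (adjusted p = 0.00803) and EIF2AK3 by -0.41 ± 0.09 (adjusted p = 0.00383). For XBP1 the difference of -0.12 ± 0.06 missed the threshold (edgeR adjusted p = 0.131).

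Other members gave no call, with intervals of differing width. For PDIA4 the difference was -0.01, with a 95% interval of -0.16 to 0.13, and for P4HB 0.00, with -0.15 to 0.15. For DERL3 it was -0.05, with -0.61 to 0.51, which leaves room for large differences. CRELD2 had the largest positive difference, 0.29 ± 0.11 (edgeR adjusted p = 0.0589).

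**Figure D4:**
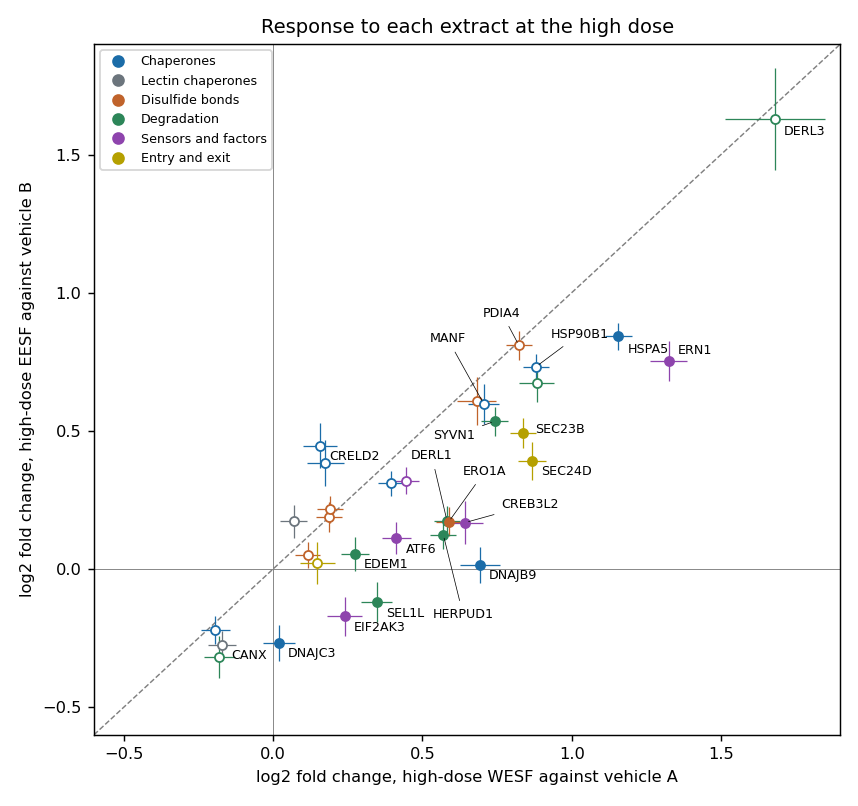
Log2 fold change of each of the 33 genes at the high dose of WESF (x axis) and of EESF (y axis), each against its own vehicle, with SE bars and a dashed line of equality. The 15 filled points, for which the difference had an adjusted p under 0.05, all lie below the line, and PDIA4 and DERL3 lie on or near it.

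Since the vehicle libraries of the same number vary together, these differences were also fitted with the vehicle number as a block, chosen after the values were seen. At the high dose 18 members were then called, 17 lower and 1 higher (CRELD2), among them all 15 above, with HSP90B1 and SELENOS added, against 31.1% of all genes in either direction. At the medium dose 0 members were called without the block, against 0.203% of all genes, and 1 with it (SEC24D, -0.20, edgeR adjusted p = 0.0206, 4.56% of all genes). With the medium-dose numbers as a further block, 6 members were called, all lower with EESF, against 8.73% of all genes: DNAJB9 (-0.33), SEC24D (-0.20), SEC23B (-0.17), SEL1L (-0.17), CREB3L2 (-0.17) and DNAJC3 (-0.14). That block rests on the weaker pairing of the medium-dose libraries. At the low dose 0 were called without it, against 0.00756% of all genes, and 1 with it (DNAJC3, -0.23, edgeR adjusted p = 0.0161, 1.69%). Without the block, 3 members had an unadjusted p under 0.05 at each of these doses, all with lower values for EESF, and DESeq2 called 0. Of all genes, 1735 of 13276 had an unadjusted p under 0.05 for the difference at the medium dose. At the low dose 1390 of 13221 did. The 3 members at each dose are therefore not read as a change of the members apart from other genes.

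The vehicles themselves were close. Between vehicle B and vehicle A the log2 fold changes of the members lay between -0.21 (DERL3) and 0.08, with 0 members called by edgeR or DESeq2, 0 at an unadjusted p under 0.05, and 0% of all genes called (371 of 13001 had an unadjusted p under 0.05). With the block, 7 members were called, 2 higher (CANX and SEC24D) and 5 lower (HSPA5, HSP90B1, MANF, PDIA4 and P4HB), with MANF farthest at -0.09 on the log2 scale, against 3.68% of all genes. That fit of 6 libraries leaves few residual degrees of freedom, and its SE for HSPA5 was only 0.0026. Its error may be understated, so the 7 calls are not read as differences between the batches. For the 5 members with the smallest adjusted p between the extracts, the vehicles differed by 0.06 (DNAJB9), 0.05 (ERO1A), -0.04 (HERPUD1), 0.05 (DERL1) and -0.02 (ERN1).

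The wider pathway was read from 97 other ER genes, listed by role and not by their values here. With WESF high 54 were higher and 16 lower (11 and 1 as DEGs), with a median of 0.15, and with EESF high 35 were higher and 16 lower (7 and 0), with a median of 0.06. As DEGs, 11.1% of all genes were higher and 13% lower with WESF high, and 8.21% and 9.17% with EESF high. The difference between the extracts was called in 22 of them, 3 higher and 19 lower with EESF, where 12.7% and 13.3% of all genes were. Beside these counts, 34.3% of all genes were higher and 34.6% lower with WESF high, and 29.3% and 28.7% with EESF high. The largest rise among the 97 was that of KDELR3, a receptor that returns proteins to the ER, by 1.11 with WESF and 0.93 with EESF, and the 1 DEG with a lower level was CREB3L1, a relative of CREB3L2, which fell by 0.61 with WESF. Of the other 15 COPII and vesicle genes, 14 were higher and 0 lower with WESF high, with a median of 0.38, and 8 higher and 1 lower with EESF high, with a median of 0.17. The other folding genes (31) had 15 higher and 6 lower with WESF, the other degradation genes (16) 9 and 3, the other translocation genes (23) 10 and 3, and the other regulators (12) 6 and 4. With EESF high these lists had, in the same order, 14 higher and 5 lower, 5 and 2, 6 and 4, and 2 and 4.

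The integrated stress response, the programme of ATF4 that PERK and other kinases start, was read from 17 genes, against the same shares of all genes. With WESF high 15 were higher and 1 lower (9 and 1 as DEGs), with a median of 0.62. With EESF high 13 were higher and 1 lower (9 and 0), with a median of 0.68. The difference between the extracts gene by gene was called in 10 of the 17 as lower with EESF and in 2 as higher, with a median of -0.22. Of all genes, 13.3% were called lower and 12.7% higher in that comparison. ATF4 itself rose by 0.74 with WESF and 0.52 with EESF, and DDIT3, which encodes CHOP, by 0.62 and 0.76. TRIB3, a pseudokinase and ATF4 target, measured 26.5, 24.6 and 26.8 CPM in vehicle A and 94.7, 94.7 and 89.7 CPM in WESF high, and 27.7, 25.9 and 26.9 CPM in vehicle B and 71.3, 72.2 and 71.8 CPM in EESF high. Its groups were far apart, with log2 fold changes of 1.84 and 1.42. DDIT4, an inhibitor of mTOR signalling, rose by 1.91 and 1.02, ATF3, a stress-induced transcription factor, by 1.74 and 1.00, and SESN2, a stress-induced regulator of mTOR signalling, by 1.65 and 1.10, while ATF5 fell by 0.95 with WESF.

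The cytosolic heat shock proteins, a folding system outside the ER, moved in both directions. Of 17 genes, 11 were higher and 3 lower with WESF high (4 and 2 as DEGs), with a median of 0.28, and 7 higher and 5 lower with EESF high (0 and 1), with a median of 0.18. Of all genes, 34.3% were higher and 34.6% lower with WESF high, and 29.3% and 28.7% with EESF high. The DEGs with a higher level at WESF high were HSPA1A, HSPA1B, DNAJB4 and AHSA1, at log2 fold changes of 1.00, 0.91, 0.72 and 0.59. HSPA1A and HSPA1B are near-identical copies, so the division of reads between them is uncertain. HSPB1 and HSPB8, small heat shock proteins, fell by 0.94 and by 0.75 with WESF, and HSPB8 fell by 0.85 with EESF. At EESF medium and low 5 of the 17 were lower and 0 higher, where 8.48% and 6.24% of all genes were lower and 6.9% and 3.11% higher.

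**Figure D5:**
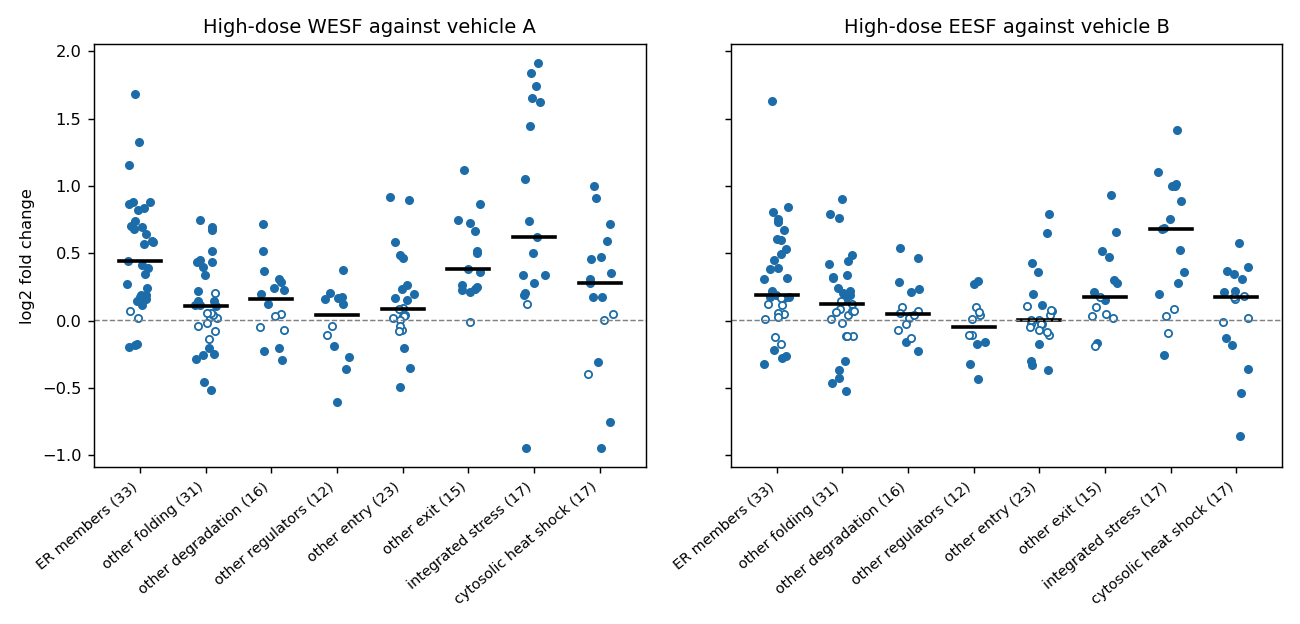
Log2 fold change of single genes (points) at the high dose of WESF and of EESF against their vehicles, for the 33 members and 7 other lists, filled where the adjusted p was under 0.05 (edgeR), with the list median as a black bar and the median of all genes tested as a dashed line. The members have medians of 0.44 and 0.19, the other vesicle genes (other exit) 0.38 and 0.17, and the integrated stress response 0.62 and 0.68. Taken gene by gene, EESF minus WESF had a median of -0.15 for the members, -0.18 for the other vesicle genes and -0.22 for the integrated stress response.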

How the data were processed

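Per the submitters' processing notes and the methods, the authors checked reads with FastQC 0.11.9, trimmed them with Trim Galore 0.6.6, aligned them with STAR 2.7.9a to GRCh38 and deposited RSEM 1.3.3 expected counts per gene for the 24 libraries, from a directional kit. The strand setting of RSEM is not given in the sources used here. Of the deposited expected counts, 10.9% were not whole, and they were rounded. Of the 60675 genes, 56558 matched GENCODE 44 by identifier. Protein-coding genes that passed filterByExpr were tested with edgeR 4.0.16 (R 4.3.3, limma 3.58.1): TMM factors and the 2-sided quasi-likelihood test, with Benjamini-Hochberg adjustment over all genes tested. Each dose was fitted with the vehicle of its batch in 6 libraries, and the difference between extracts as the interaction in 12. The method was tested on simulated data with independent libraries and planted changes larger than most of those of the members. That test does not bear on small changes or on vehicles that vary together. DESeq2 1.42.0, the tool of the study, was an alternative, beside other size factors, no filter, all genes, counts thinned to 18727769 per library, all groups in the fit, a replicate block and each library left out. TPM-like levels are CPM divided by canonical transcript length.

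HSPA5, XBP1, ATF6, ERN1 and EIF2AK3 were given in full, with the 5 largest rises and falls among DEGs of each high-dose comparison and the 5 smallest adjusted p of the difference between extracts. Over the other lists pooled, the 3 largest rises and falls among DEGs of each high-dose comparison were named. Other genes were given in full after their values were seen (CALR, CANX, DNAJC3, SEC24D and TRIB3), and ATF4, DDIT3, KDELR3, CREB3L1, HSPA1A, HSPA1B, DNAJB4 and AHSA1 were named then. The genes and lists were chosen with earlier results of these data known. Protein sequences were not analysed here. Same-numbered vehicle and treated libraries were not paired, while the vehicles of both batches and the medium-dose libraries of both batches were (all 3 correlations above 0.1 in each), from the data and not from the labels. A differently numbered low-dose pair also reached 0.193. The vehicle and treated libraries were judged over all genes that passed the filter, and the others over 6024 genes.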

Additional observations from a re-analysis of the deposited data

Results flagged for a closer look

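For 15 members the change at the high dose differed between the extracts, by edgeR's test of EESF minus WESF over 12 libraries. In all of these the value was lower with EESF. Of all genes, 12.7% were called with a positive difference and 13.3% with a negative one. The calls of DNAJC3, SYVN1 and EDEM1 were lost in many fits that left out 1 library, as given above. On the log2 scale the differences were -0.68 for DNAJB9, -0.57 for ERN1, -0.47 for SEL1L, -0.47 for CREB3L2, -0.47 for SEC24D, -0.44 for HERPUD1, -0.42 for ERO1A, -0.41 for DERL1, -0.41 for EIF2AK3, -0.34 for SEC23B, -0.31 for HSPA5, -0.30 for ATF6, -0.28 for DNAJC3, -0.22 for EDEM1 and -0.21 for SYVN1. DNAJC3, SEL1L and EIF2AK3 had values of opposite sign with the extracts, above 0 with WESF and below 0 with EESF. Against the vehicles, however, DNAJC3 was not called with WESF, and SEL1L and EIF2AK3 were not called with EESF. Extract, batch and dose in µg/mL all differed between the groups compared and cannot be told apart. The vehicles of these genes differed by -0.05 to 0.08 between the batches.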

How the results depend on the processing

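The number of members called at WESF high was 27 to 31 under every alternative run (31 in the main analysis), at EESF high 20 to 28 (24) and for EESF minus WESF at the high dose 12 to 18 (15). Of 611 values of single named members under alternatives, 594 kept their direction and side of the threshold, 14 newly passed it, 3 no longer did, and 0 reversed. At WESF medium (1) it was 2 with RLE size factors, 2 with no filter on low counts, 2 with all groups in the fit, 0 with thinned counts and 0 to 5 with 1 library left out. At EESF low (7) it was 3 with all groups in the fit and 1 to 10 with 1 library left out, and at EESF medium (6) 3 to 11 with 1 library left out. The cause of these shifts was not tested. Shares of all genes called are given with the results above and not for each of these alternatives. The counts here therefore do not show a change of the members apart from other genes.

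A replicate block was also fitted within each batch, where same-numbered vehicle and treated libraries showed no clear correlation over all filtered genes. It gave 0 at WESF medium, 12 for the difference at the high dose, and 31, 23, 7 and 7 at WESF high, EESF high, EESF medium and EESF low. The shares of all genes called in these fits are not given here. These counts are therefore not read as a change of the members. The replicate block of the vehicle libraries gave 7 for vehicle B against vehicle A, and 1 for the difference at the medium dose and 1 at the low dose, where 0 were called without it; with the medium-dose libraries also blocked by number, the medium dose gave 6. With 3 libraries a group, calls of members lost when 1 library was left out had log2 changes of 0.12 to 0.28 in size, and DERL3 at about 1 CPM in the vehicles had the widest interval.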
